A study of Mus musculus with 18 samples.

Results

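The regions described here were bound by CTCF, by the criteria of the peak caller, in 1 of 3 lines of mouse embryonic stem cells. They carry a CTCF peak in cells without Tet1, Tet2 and Tet3 (the triple knockout, TKO) and none over it in wild-type cells (WT) or in cells that lack Dnmt1, Dnmt3a and Dnmt3b as well as the 3 Tet genes (the sextuple knockout, SKO). Peak rows with equal start and end were joined, intervals of the 3 lists that overlapped by at least 1 bp were merged, and a merged region was taken when it held a TKO interval and no interval of the other lists. This gave 3359 of 78072 merged regions, or 4.30% (95% Wilson interval 4.16% to 4.45%), and each of them is a single TKO interval. Of the 62238 TKO regions they are 5.40%. By the same rule the SKO list alone held 2610 regions, 4.40% of its 59372, and the WT list alone 9934, 14.0% of its 71075.

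The samples are 3 CTCF ChIP and 3 input libraries for each genotype, 18 samples in 6 groups. All cells were cultured on irradiated mouse embryonic fibroblasts with serum replacement and leukaemia inhibitory factor. The labels do not say whether replicates were separate cultures, how many clones a knockout stands for, or which exons were removed. The authors pooled the 3 replicates of a genotype before calling peaks, so a region has 1 value per list, no spread between replicates can be given, and no test between genotypes was made. Intervals below cover counting error only, and the libraries were amplified by PCR with no molecular identifiers mentioned. A peak list holds no expression values, so the stem cell identity could not be checked from markers. Each genotype is also a line of its own, and the missing enzymes cannot be told apart from other differences between the lines.

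CTCF is a zinc finger protein that binds a long, CG-containing motif and, together with cohesin, holds the anchors of chromatin loops and domain borders. Methylation of a CpG within the motif is known to weaken its binding at a subset of sites. TET enzymes oxidise 5-methylcytosine and so favour its removal, whereas DNMT1 copies methylation after replication and DNMT3A and DNMT3B lay it down anew, so that DNA without TET enzymes tends to keep methylation and DNA without the DNMT enzymes has little.

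Sequence could be read only for the promoters among these regions, in windows set by the start site and not by the peak. Sequences were available for 32851 promoter windows of 27025 genes, each 300 bases from 250 before to 50 after a start site (RefSeq, GRCm38.p6, the assembly behind mm10). Of the 3237 TKO-only regions on chromosomes that the windows cover, 126 (3.89%) had their summit in a window. They lay in 142 windows of 137 genes, since 11 of them sat in windows of 2 or more genes. The nearest window belonged to a protein-coding gene for 110 and to another transcript for 16. The following upstream stretches belong to the 8 TKO-only promoter regions with the highest fold enrichment, the ratio of ChIP to background at the summit. They are read 5′ to 3′ on the gene's strand, with each CpG in capitals.
Tbc1d2 (chr4:46650200-46650299, minus strand): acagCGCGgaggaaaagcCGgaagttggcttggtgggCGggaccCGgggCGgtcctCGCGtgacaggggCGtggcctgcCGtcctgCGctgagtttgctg
Btbd6 (chr12:112976382-112976481, plus strand): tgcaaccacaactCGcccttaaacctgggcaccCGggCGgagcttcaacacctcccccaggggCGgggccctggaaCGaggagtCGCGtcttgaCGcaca
Gm42111 (chr5:92063331-92063430, minus strand): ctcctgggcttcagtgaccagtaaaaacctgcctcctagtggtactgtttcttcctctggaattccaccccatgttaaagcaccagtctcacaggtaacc
Apeh (chr9:108094507-108094606, minus strand): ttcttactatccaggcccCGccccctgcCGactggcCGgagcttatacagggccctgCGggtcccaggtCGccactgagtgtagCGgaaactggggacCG
Slc22a23 (chr13:34345369-34345468, minus strand): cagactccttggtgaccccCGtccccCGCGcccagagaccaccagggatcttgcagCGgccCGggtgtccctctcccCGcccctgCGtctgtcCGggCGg
Thap12 (chr7:98702997-98703096, plus strand): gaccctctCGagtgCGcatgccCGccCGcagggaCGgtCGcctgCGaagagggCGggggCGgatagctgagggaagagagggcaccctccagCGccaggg
Tyw5 (chr1:57406675-57406774, minus strand): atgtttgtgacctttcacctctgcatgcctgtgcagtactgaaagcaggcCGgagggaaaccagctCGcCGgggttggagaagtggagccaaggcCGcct
Gm40287 (chr12:15606203-15606302, plus strand): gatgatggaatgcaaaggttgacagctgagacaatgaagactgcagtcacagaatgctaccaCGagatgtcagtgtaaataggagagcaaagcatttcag
CpG content differed among these 8. The window of Tbc1d2, a GTPase-activating protein for Rab proteins, held 33 CpG dinucleotides and its region had a fold of 10.0. The 2 windows of Btbd6, a BTB-domain adaptor of cullin ubiquitin ligases, held 19 and 26, at a fold of 9.84. Apeh, an acylpeptide hydrolase, had 20 at a fold of 7.10. Slc22a23, a member of a transporter family, had 38 and Thap12, a zinc finger protein of the THAP family, had 39, both at a fold of 7.10. The window of Tyw5, an enzyme of transfer RNA modification, had 25 at a fold of 6.68, with 4 of them in the stretch shown. The predicted genes Gm42111 and Gm40287 had 0 and 2, at folds of 7.27 and 6.39.

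The median was 21 CpG per window (quartiles 14 and 27) in the TKO-only promoters, against 7 (3 and 20) over all windows, and 109 of the 126 regions lay in a window with at least 10. CpG-rich windows were found in the other classes as well. The median was 18 (10 and 25) in the 1453 windows that held a summit of a region common to all 3 lists, 20 in those of WT-only regions and 22 in those of SKO-only regions. The median GC content was 61.5% in TKO-only windows, 59.3% in the windows of common regions and 52.7% over all windows.

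The central letters of the CTCF motif were rare in these promoters. The search string was CCANNAGNNGGC, read on both strands with N for any base. It was found in 7 of 142 TKO-only windows (4.93%, 2.41% to 9.83%), in 248 of the 1453 windows of common regions (17.1%, 15.2% to 19.1%) and in 797 of all 32851 windows (2.43%). The low share was not particular to TKO-only windows. It was 5.33% in SKO-only and 6.96% in WT-only windows, 6.06% in those of WT and TKO and 7.94% in those of TKO and SKO. Of the 7 TKO-only windows, 5 are printed in the next lines in order of fold, with the match in capitals. Each stretch has 60 bases on the gene's strand. The stretches are shown because they come from promoters where the letters were present, and in Gm42111 and Dok7 the match lies on the opposite strand. In Odf2 and Xrn2 the match lies outside the called intervals, chr2:29889395-29889627 and chr2:147012922-147013178. In Elovl6 it crosses the edge of the interval, which starts at 129532170.
Gm42111 (chr5:92063365-92063424, minus strand): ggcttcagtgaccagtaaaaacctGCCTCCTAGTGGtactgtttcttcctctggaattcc
Dok7 (chr5:35056680-35056739, plus strand): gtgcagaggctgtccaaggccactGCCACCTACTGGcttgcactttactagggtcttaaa
Elovl6 (chr3:129532142-129532201, plus strand): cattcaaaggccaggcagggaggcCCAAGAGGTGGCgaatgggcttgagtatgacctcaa
Odf2 (chr2:29889625-29889684, plus strand): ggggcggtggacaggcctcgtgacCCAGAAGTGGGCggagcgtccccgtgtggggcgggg
Xrn2 (chr2:147012829-147012888, plus strand): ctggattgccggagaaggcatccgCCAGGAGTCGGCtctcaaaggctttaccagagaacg
Among the promoters bound in all 3 lists, the strongest with these letters are shown for comparison. They belong to Adprhl2, an ADP-ribosylserine hydrolase (TKO fold 85.4), Rbm17, a splicing factor (67.6), and Rplp0, a protein of the ribosomal stalk (61.8), and the match in Rbm17 is on the opposite strand.
Adprhl2 (chr4:126321724-126321783, minus strand): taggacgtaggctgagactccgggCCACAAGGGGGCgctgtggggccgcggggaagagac
Rbm17 (chr2:11603333-11603392, minus strand): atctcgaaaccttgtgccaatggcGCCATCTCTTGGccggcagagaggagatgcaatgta
Rplp0 (chr5:115559266-115559325, plus strand): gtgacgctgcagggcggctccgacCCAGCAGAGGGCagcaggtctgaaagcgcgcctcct
These 3 were picked for their high fold. Among the 5 TKO-only examples the fold was 7.27 at Gm42111, 4.89 at Dok7, an adaptor of the neuromuscular junction, 3.53 at the fatty acid elongase gene Elovl6, 3.15 at the centriole gene Odf2 and 2.84 at the nuclear exoribonuclease gene Xrn2. The match lay a median of 85 bp from the summit in the 7 TKO-only windows, and 3 of 7 were within 50 bp. In common regions it lay a median of 19 bp away, and 205 of 248 (82.7%) were within 50 bp. These distances were not compared at the same peak strength, and 7 windows are few.

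In common regions the letters were found more often in stronger peaks. Bins of equal size, 10 in all (deciles), were made from the −log10 q of the TKO list, where q is the false discovery rate of a peak. In common regions the share of windows with the letters was 1.82% in the weakest decile (1 of 55 windows, 0.322% to 9.61%) and 23.4% in the strongest (474 windows). When the common windows were weighted to the deciles of the TKO-only ones, the share was 3.64%, inside the interval of the TKO-only value. That weighted share rests mostly on the weakest decile, which holds 102 of the 142 TKO-only windows. A looser string with 1 letter fewer fixed, CCNNNAGNNGGC, gave 16.2% of TKO-only windows, 38.5% of common windows, 16.9% of common windows at the same strength and 8.61% of all windows. The presence or absence of these letters in a window says nothing about sites elsewhere in the region, and no genome sequence was at hand for regions outside promoters.

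**Figure D1:**
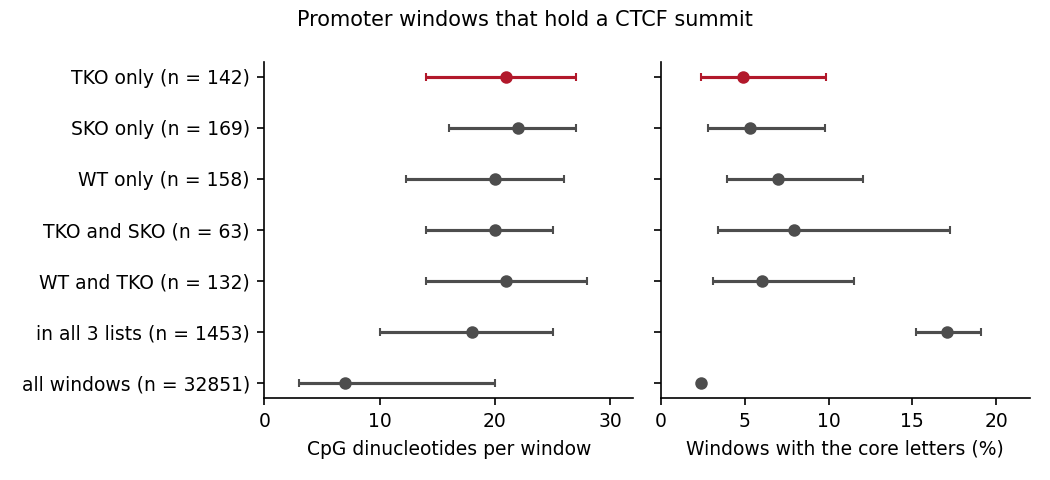
Promoter windows of 300 bases that hold a CTCF summit, by the lists in which the region was found. Left, CpG dinucleotides per window, median with quartiles. Right, percent of windows with the core letters, with 95% Wilson intervals. CpG numbers are similar in the 6 classes of bound windows. The core letters stand at 4.93% in TKO-only windows against 17.1% in windows of regions in all 3 lists. The other bound classes lie between, from 5.33% in SKO-only windows to 7.94% in those of TKO and SKO.

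TKO-only regions were weak peaks. The members were selected on membership of the lists, which is decided by peak strength, so the strengths that follow are a description of what chose them. Their median fold was 4.50 (quartiles 3.64 and 5.40, range 1.28 to 11.2), where the TKO values of common regions had a median of 11.2 (7.77 and 15.6). The median −log10 q was 5.50 against 37.5, and the median width 241 bp against 383 bp. A fold of 8 or more was reached by 56 members. Only 4 of 3359 lay above the median −log10 q of the TKO list. A second summit was present in 19 members (0.566%) and in 1674 common regions (3.22%). Weak peaks were uncommon among common regions, of which 2012 (3.87%) had a fold below the members' median.

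**Figure D2:**
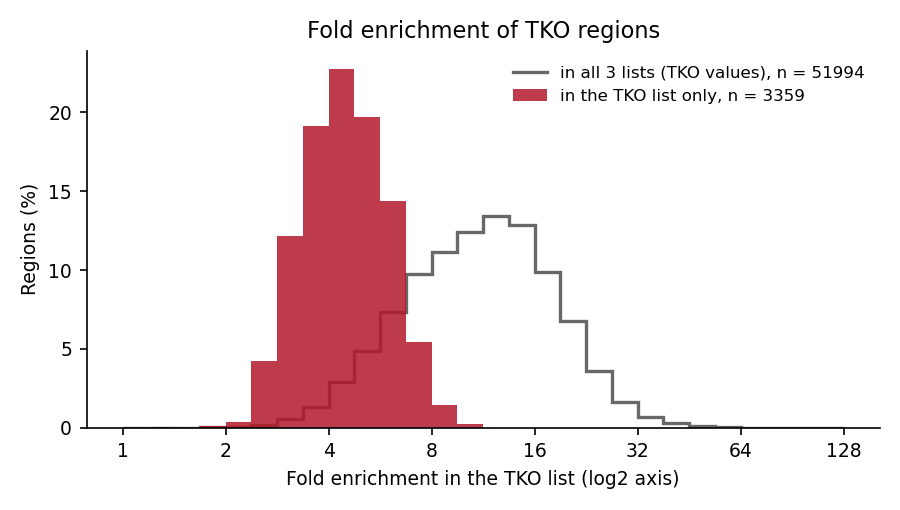
Fold enrichment in the TKO list (log2 axis) of TKO-only regions (filled) and of TKO regions common to all 3 lists (line), as percent of regions in each class. The TKO-only regions centre on 4.50 and end at 11.2, which is the median of the common regions.

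The pileup, the number of ChIP fragments over the summit, puts these strengths into counts. It was solved from fold and −log10 p and had a median of 15 in members (quartiles 12 and 18) against 50 in common regions. The local background had a median of 2.20 fragments against 3.46, and 833 members (24.8%) stood at the genome-wide background of the list. Regions of the other single-list classes had like values. The median fold was 4.50 and the median pileup 12 in SKO-only regions, and 4.86 and 15 in WT-only regions. Regions in TKO and SKO had a median TKO fold of 5.14, and those in WT and TKO 5.40.

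The share of TKO regions found in that list alone fell steeply with strength. In the weakest decile it was 33.4% (2077 of 6224, 32.2% to 34.6%), in the next 14.3% (887 regions), then 5.03% (313), 1.09% (68) and 0.161% (10). The 5 strongest deciles held 4 members together, with 1, 2, 0, 1 and 0 in order. Where a decile held 0 of 6224, the limit of 3 counts is a share of 0.0482%, and the upper Wilson limit is 0.0617%.

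At their own rescaled background, most members lay within 2 times the lowest pileup that would be listed in WT. For each member, the TKO pileup was rescaled to the depth of another list through the ratio of genome-wide backgrounds (0.965 for WT, 0.752 for SKO). It was then divided by the lowest pileup that passes there at the member's own rescaled background. The ratio for WT had a median of 1.61 (quartiles 1.33 and 1.93, highest 4.34), and it was 2 or more in 778 members (23.2%). For SKO the median was 1.40 (1.17 and 1.67), and 300 members (8.93%) reached 2. The lower 95% Poisson limit of the pileup still passed at the WT threshold in 1302 members (38.8%) and at the SKO threshold in 726 (21.6%), all of which passed at both. With the genome-wide WT background in place of the member's own, the median ratio for WT was 2.07, and 1715 members (51.1%) reached 2. The peak caller also needs a minimum width, so a passing pileup does not by itself make a peak.

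At the edge of the rule, membership turned on a few bases. The member nearest to an interval of another list, 5 bp away, lay 14.6 kb from Mreg (chr1:72226843-72227251, fold 2.89). The next lay 14 bp away in the neighbourhood of Crbn (chr6:107036767-107037020, fold 6.74), 15 bp away in that of Pard3b, 27 bp away inside Jtb and 34 bp away inside Bend6. Just outside the rule, a region inside the ribosomal protein gene Rps2 shared 13 bp with an SKO interval (chr17:24719593-24719805, fold 3.44). Others near Ppfia2, inside Dag1, near Prdm13 and near Tafa4 shared 19, 19, 20 and 25 bp with intervals of WT, SKO or both. Such cases were few. The median distance from a member to the nearest WT or SKO interval was 6743 bp, 14 members (0.417%) had one within 100 bp and 190 (5.66%) within 500 bp, and 103 (3.07%) had none within 100 kb.

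The 12 members of highest fold had 25 to 45 fragments at the summit. The first lay 9.27 kb from Pak6, a p21-activated kinase (chr2:118653647-118653937), with fold 11.2, −log10 q 26.2 and a pileup of 33 (exact Poisson interval 22.7 to 46.3). Rescaled, that pileup was 3.98 times the lowest passing one in WT and 3.55 times that in SKO. The second lay 1.41 kb from Xxylt1, a xylosyltransferase that modifies Notch receptors (chr16:30953703-30954134), with fold 11.1 and a pileup of 45 (32.8 to 60.2). It was 4.34 times the lowest passing WT pileup, although a WT interval began or ended 375 bp away.

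A member inside Arhgef11, a guanine nucleotide exchange factor for small GTPases (chr3:87624062-87624358), had fold 10.6 and a pileup of 29 (19.4 to 41.6). The nearest WT interval was 34161 bp away. The region at the Tbc1d2 promoter printed above (chr4:46650007-46650315) had fold 10.0 and a pileup of 28, and its summit lay 29 bp after the start site. The region at Btbd6 (chr12:112976342-112976557) had fold 9.84 and a pileup of 27.

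The other members of this group were spread over coding and predicted genes. A region 0.115 kb from Efr3a, which anchors a lipid kinase at the plasma membrane, had fold 9.35 (chr15:65786731-65787037), as had a region 37.5 kb from the transcription factor gene Gtf2f2 (chr14:76048273-76048544). A region 99.2 kb from the angiotensin receptor gene Agtr2 (chrX:21385276-21385582) and a region inside the predicted gene Gm36028 (chr16:37862311-37862597) both had fold 9.23. Regions 144 kb from Gm9222 (chr12:18083845-18084183) and 2.01 kb from Gm11546 (chr11:94803901-94804213) had folds of 10.2 and 10.0.

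By −log10 q, 4 of the 6 leading members were regions of high background, and the others were those near Xxylt1 (33.4) and Pak6 described above. The highest, 73.4, belonged to chr9:3004537-3004751, with a fold of 1.71, a pileup of 1429 and a background of 837. It was followed by chr9:3016977-3017197 (−log10 q 50.6, fold 1.80) and by a region on an unplaced sequence (fold 1.83, pileup 783). A region inside Sfi1, a centrosomal gene (chr11:3188681-3188916), had −log10 q 28.0 at a background of 32.1. High background was a trait of few members. A background over 10 was found in 19 (0.566%) and in 1034 common regions (1.99%), and without those regions the number of members was 3340.

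Members lay at gene ends and start sites more often than common regions did. A gene end here is either boundary of a gene in the RefSeq table. Of 3356 members on chromosomes with genes in the table, 438 (13.1%, 12.0% to 14.2%) had a summit no more than 1 kb from an end of a protein-coding gene. The share was 8.97% in common regions and 10.3% in common regions weighted to the members' strength deciles. Near a start site, with strand known, it was 361 of 3237 (11.2%, 10.1% to 12.3%), against 7.12% and 8.43%. Start sites were known only for the 27025 genes with promoter windows, where the gene table holds 49993, so some were missed.

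That excess was seen in the weakest peaks. Of TKO regions in the weakest decile, 39.4% of those at gene ends were TKO-only (313 of 794, 36.1% to 42.9%), against 32.5% elsewhere (31.3% to 33.8%). In the second decile the shares were 16.9% (14.0% to 20.4%) and 14.0% (13.1% to 14.9%), and in the third 6.34% (4.48% to 8.91%) and 4.89% (4.37% to 5.48%), with overlapping intervals. Among the members with a −log10 q of at least 5, 9.94% (8.65% to 11.4%) lay at gene ends, against 9.17% in common regions of the same strength, a value inside the interval. The weakest decile spans a −log10 q of 1.30 to 6.50 and holds 2077 members and 1826 common regions. Strength was not matched within a decile, and the weighted shares have no interval.

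**Figure D3:**
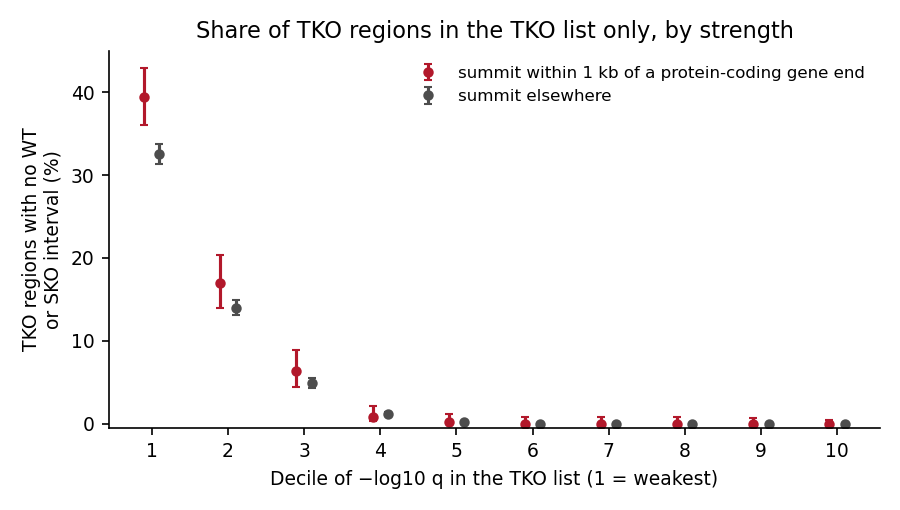
Percent of TKO regions that have no WT or SKO interval, by decile of −log10 q in the TKO list, for summits up to 1 kb from an end of a protein-coding gene and for all others, with 95% Wilson intervals. The share falls from 39.4% and 32.5% in the weakest decile to near 0 from the fifth on, and the intervals of both series are apart only in the weakest decile.

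Around start sites the members were densest in the first 250 bp on either side. From 0 to 250 bp after the start lay 98 members, a density of 12.1% of members per kb (9.96% to 14.7%). Common regions had 3.73% per kb there, and 7.49% at the same strength. In the 250 bp before the start lay 87 members, 10.8% per kb against 9.18% and 6.90%. From 250 to 500 bp after the start the densities were 5.44%, 2.47% and 4.41% per kb, and from 2 to 5 kb before it 1.25%, 1.62% and 1.47%. The common regions as a whole were densest just upstream, whereas the members and the common regions at their strength had similar densities on both sides.

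**Figure D4:**
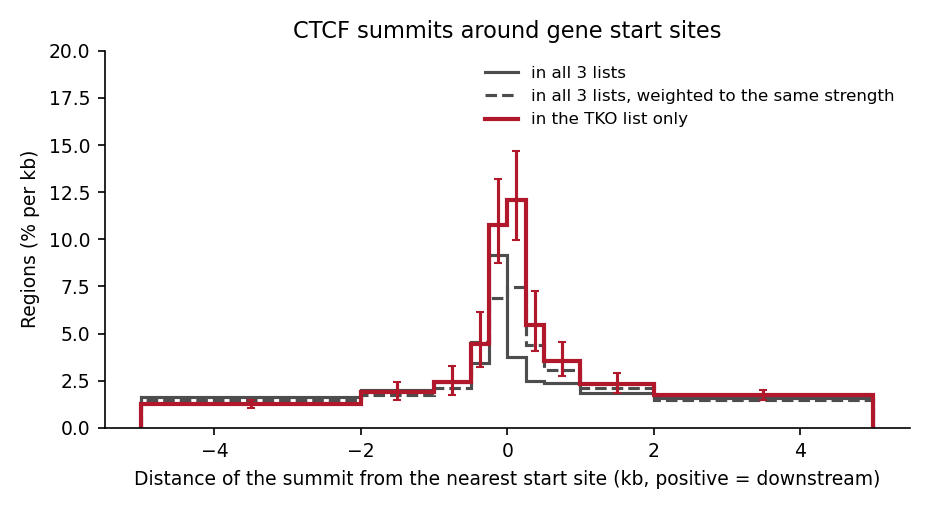
Density of CTCF summits around the nearest start site (percent of regions per kb, distance in kb, positive downstream) for TKO-only regions with 95% Wilson intervals, for regions in all 3 lists, and for the latter weighted to the same strength. TKO-only regions reach 12.1% per kb in the first 250 bp after the start, where regions in all 3 lists reach 3.73% and 7.49%.

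Away from gene ends the members lay closer to common regions of their strength. Inside protein-coding genes lay 1775 (52.9%, 51.2% to 54.6%), against 48.7% of common regions and 52.1% at the same strength. More than 100 kb from any protein-coding gene lay 337 (10.0%, 9.07% to 11.1%), against 8.68% and 11.7%, so that the weighted value was above the interval. Within 5 kb of another TKO region lay 1178 (35.1%, 33.5% to 36.7%), against 38.0% and 34.7%.

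The other single-list classes lay on either side of the TKO-only regions. At ends of protein-coding genes, up to 1 kb away, lay 18.2% (16.8% to 19.8%) of SKO-only regions, against 10.8% in common regions at their strength. WT-only regions went the other way, with 7.31% (6.81% to 7.84%) against 13.6%. Regions in TKO and SKO without WT stood at 13.6% (11.9% to 15.6%) against 9.52%, close to the TKO-only value, and regions in WT and TKO at 7.55% (6.88% to 8.27%) against 9.27%. Promoter windows held the summits of 3.89% of TKO-only, 5.75% of SKO-only and 1.51% of WT-only regions. These classes come from the same 3 lists and are not independent of each other.

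No gene collected a large number of members. Counting a gene with 10 kb on either side, 19179 protein-coding genes had none, 2393 had 1, 274 had 2, 31 had 3 and 6 had 4. The genes named next were picked for having the most members, and over all TKO regions the share of members was 5.40%. Chd9, a chromodomain helicase, had 4 members among its 12 TKO regions, with folds of 3.43 to 5.22. Anks1 had 4 of 15 (2.82 to 5.90) and Sil1, an exchange factor for the chaperone BiP, had 4 of 11 (2.97 to 5.65). Some of the genes with most members are long. Tenm4, a teneurin of 740 kb, had 4 of 13. Lrp1b, a lipoprotein receptor of 2058 kb, had 3 of 10 with a highest fold of 7.10, and the tyrosine kinase gene Abl1 had 3 of 14 with folds of 5.54 to 5.97.

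Members were likewise scattered along the chromosomes. Of the windows of 100 kb that held any, 2645 had 1, 292 had 2, 34 had 3, 3 had 4 and 2 had 5. Those named below are the extremes of this count, so their shares are high by selection, beside 5.40% over all TKO regions. The window on chromosome 2 from 75600001 to 75700000 had 5 of 15 TKO regions, in Gm50595, at Hnrnpa3 and inside Nfe2l2, the transcription factor of the oxidative stress response, where the highest fold was 6.83. The window on chromosome 17 from 34900001 to 35000000 had 5 of 16. Members lay 7.94 kb from the sialidase gene Neu1, 3.45 kb from D17H6S56E-5 and inside the HSP70 genes Hspa1b and Hspa1a. Another member lay 7.21 kb from Hspa1b and had the highest fold, 6.25. Windows with 4 members included the group of Arhgap30, Usf1 and F11r on chromosome 1 (4 of 8 TKO regions, highest fold 6.78) and the group of Ilrun, Snrpc and Uhrf1bp1 on chromosome 17 (4 of 9, highest fold 5.54).

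Of the 6 genes deleted in these lines, 4 had a TKO-only region inside or within 10 kb. Over all protein-coding genes counted in this way, 19179 had none and 2393 had 1. Together the 6 deleted genes had 4 members among 30 TKO regions (13.3%, exact interval 3.76% to 30.7%). That interval holds the 5.40% of all TKO regions. Tet1 had 1 of 8 (chr10:62883484-62883747, fold 4.75, 366 bp from a WT interval), Tet2 1 of 4, Tet3 1 of 2 (chr6:83368042-83368311, fold 3.93) and Dnmt3b 1 of 5 (chr2:153660028-153660288, fold 4.78). Dnmt1 had 0 of 6 and Dnmt3a 0 of 5. The Tet genes are deleted in both knockouts, and since the labels do not give the removed parts, these peaks do not check the genotypes. The Ctcf gene itself had 0 of 2, and the imprinted gene H19, whose upstream region is a classic CTCF site, had 0 of 1.

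Across 20 gene lists, 133 of the 2149 TKO regions at the 2432 listed genes were members (6.19%, 5.25% to 7.29%), beside 5.40% of all TKO regions. For the lists, a region at a gene has its summit inside the gene or within 10 kb of it. For 19 of 20 lists the exact interval held 5.40%. The exception was the clustered protocadherins, the neuronal adhesion genes whose promoters are paired with enhancers through CTCF. They had 0 of 80, for which the limit of 3 counts is 3.75% and the upper exact limit 4.51%, and the share was 1.11% with 50 kb on either side. The lists were not compared at the same peak strength, with which the share of members falls. The intervals were not adjusted for the number of lists, so this 0 is not read as a trait of these genes. The 2-cell-like genes (0 of 10) and the Rhox cluster (0 of 11) also had none, at numbers too small to read.

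The intervals of the lists of chromatin regulators all held 5.40%. Silencers of endogenous retroviruses had 7 of 73 (9.59%, 3.94% to 18.8%), and the share was 3.08% at a −log10 q of at least 5, where 3.13% of all TKO regions were members. The strongest lay 3.88 kb from Trim28, the KAP1 corepressor (chr7:13020155-13020387, fold 9.19, −log10 q 19.6). Pphln1, a subunit of the HUSH complex, had a member of fold 4.85 and Ythdc1, an m6A reader, one of 4.61. Chromosome architecture genes had 8 of 79 (10.1%), among them Zfp143, which encodes a promoter-binding partner of loops (fold 8.29), Yy1 (8.12) and the cohesin subunit gene Stag1 (5.88). Subunit and partner genes of NuRD, the remodelling and deacetylase complex that the series title names, had 8 of 89 (8.99%). These lay at Rbbp7 (fold 7.49), the partner gene Sall4 (6.30) and Hdac1 (3.87) among others. Sall4 is also counted among the pluripotency genes below. Methylation readers and partners had 3 of 53, at Uhrf2 (5.68), Dppa3 (3.95) and Kdm2b (3.46).

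The intervals of the cell identity lists all held 5.40%. Pluripotency genes had 6 of 70 (8.57%), with Nr5a2 (fold 6.58), Sall4 with 2 members and Esrrb (5.00), an orphan receptor that is also the only one of the ES cell markers with a member (1 of 25). Early lineage genes had 4 of 76, at Pdgfra (4.96), Col4a1 (4.97) and Otx2 (3.14) among others. Markers of the feeder fibroblasts had 3 of 58 (5.17%), at Twist1 (6.03), Loxl1 (5.22) and the fibronectin gene Fn1, near the share of all TKO regions. The part of feeder chromatin in the lists was not tested. Hox genes had 2 of 31, one between Hoxc12 and Hoxc13 (5.06) and one at Hoxa3 (3.27).

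The intervals of both lists of genes controlled by DNA methylation held 5.40%, the share over all TKO regions. Imprinted genes had 2 of 103 (1.94%, 0.236% to 6.84%), one shared by Igf2r and the antisense RNA gene Airn (4.83) and one at Dio3 (4.34). Germline genes silenced by methylation had 2 of 73 (2.74%, 0.334% to 9.55%), neither inside the gene. They lay 8.94 kb from Syce1 (7.10) and 6.22 kb from Hormad1 (5.93), both genes of meiotic chromosomes. Among the gene families, zinc finger protein genes had 63 of 930 (6.77%, 5.24% to 8.58%), led by Zfp143, Zfp975 (7.81) and Zfp1 (5.73). Ribosomal protein genes had 11 of 190 (5.79%), at Rps15 (6.09), Rpl3 (3.58) and Rps16 (4.74) among others, and histone genes 4 of 36 (11.1%, 3.11% to 26.1%). Olfactory receptor genes had 7 of 180 and vomeronasal receptor genes 2 of 34.

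By chromosome the share of TKO-only regions ran from 4.56% (chromosome 9, exact interval 3.89% to 5.31%) to 6.63% (chromosome 18, 5.52% to 7.88%), with a median of 5.41%. Among the 20 chromosomes other than Y, the interval held 5.40% for 18, and chromosome Y had 3 of 31. Chromosome 14 stood apart in the common regions, with a median TKO to WT pileup ratio of 0.784 where the ratio was 0.892 over all chromosomes and 0.931 on chromosome 19. Its SKO to WT ratio was 0.625. The TKO-only share of chromosome 14 was 4.66% (3.88% to 5.56%), and 17.3% of its WT regions were WT-only, beside 14.0% of all WT regions. On chromosome X 17.2% were WT-only at pileup ratios of 0.900 (TKO to WT) and 0.826 (SKO to WT), and on Y 22.2%. The part of the lower pileup in these shares was not tested.

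**Figure D5:**
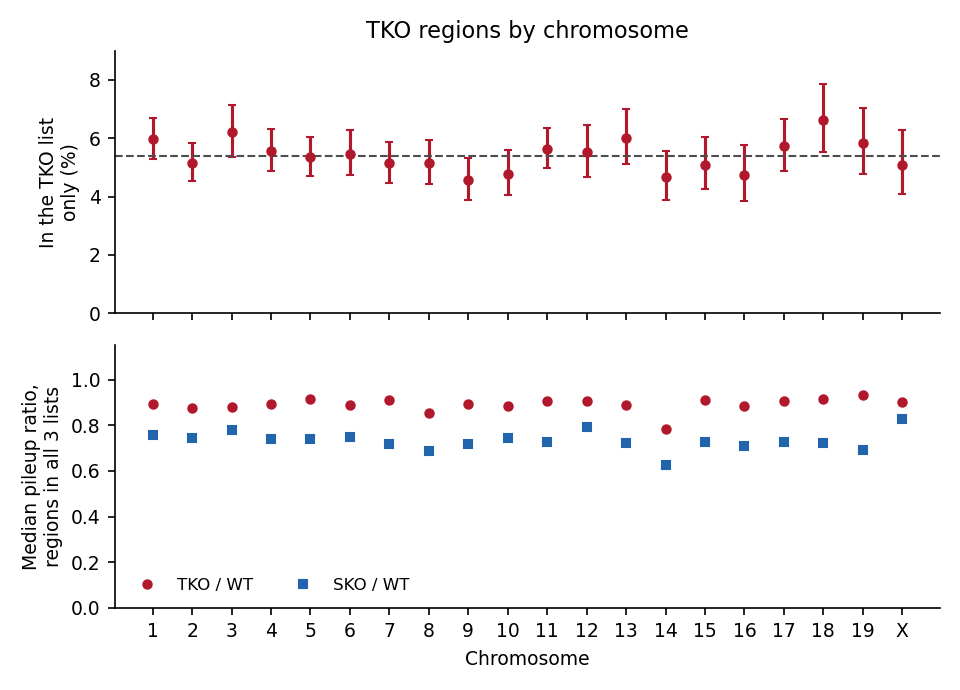
Top, percent of TKO regions found in the TKO list alone by chromosome, with 95% exact intervals and a dashed line at 5.40%. Bottom, median ratio of pileups at regions in all 3 lists, TKO to WT and SKO to WT. The shares run from 4.56% to 6.63%, and chromosome 14 has the lowest ratios, 0.784 and 0.625.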

How the data were processed

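The deposited files are 3 CTCF peak lists, 1 per genotype, each called by the authors on 3 pooled ChIP replicates against pooled input, per the labels. The submitters' processing notes name Bowtie2 2.3.4, SAMtools 1.9, MACS2 2.1.2, bedtools 2.25.0 and mm10. The settings of these tools were not given in any source used here. Each deposited peak has a fold enrichment (a ratio of ChIP to local background), the −log10 of its p-value and of its q-value, and an integer score with the summit offset, all as the authors' peak caller gave them; the lowest −log10 q was 1.30, at a q of 0.05.

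Python 3.11.15 with pandas 2.3.3 and scipy 1.17.1 applied the rule and solved pileup and background from fold and −log10 p. Whole pileups resulted for 99.5% of WT, 99.6% of TKO and 99.7% of SKO peaks (relative error 1e-04), and the genome-wide background was 1.76, 1.82 and 1.37 fragments. Read totals were not used. Script and rule were checked on simulated data. "Same strength" means the share in common regions weighted to the members' deciles of −log10 q, with no matching within a decile. Gene boundaries are those of RefSeq on GRCm38.p6, without exons. 3 list symbols were not matched. Promoter windows on chromosome 18 were not used here.

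Named were the 12 members of highest fold and those of highest −log10 q, the 8 genes and the 5 windows of 100 kb with most members, up to 3 genes per list by −log10 q, the 8 promoter members of highest fold, the 5 members and 5 non-members at the edge of the rule, and the deleted genes, H19 and Ctcf. Some items that this rule takes are left out. Further class comparisons and the examples with core letters were picked after their values were seen. The members and lists were chosen with earlier results of these data known.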

Additional observations from a re-analysis of the deposited data

How the results depend on the processing

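The number of TKO-only regions was 3345 and 3157 when intervals within 100 and 500 bp counted as shared, 3799 when a shared summit within 100 bp was required, 2664 with all lists limited to a −log10 q of at least 5, 3378 by summits, and 1824 among the members at that q. At that q the share at gene ends was 9.94%, that at listed genes 3.63% (3.13% of all TKO regions), and the highest share of a chromosome 3.94%. The gene end share was 21.0% with 2.5 kb (18.3% in common regions of the same strength) and 17.6% with all biotypes (15.3%), and 61.3% of members lay inside a gene of any biotype. Within 2 kb and 10 kb of another TKO region lay 15.9% and 54.6%. The genome-wide background moved the pileup ratio to 2.07, and the core letters were found in 16.2% of windows with the looser string and 0.704% with the longer one, GNCCANNAGNNGGC. Of 60 alternative values for the lists, 53 lay inside the list's interval and 7 outside, namely gene bodies alone for germline (0%), olfactory receptor (0%), histone (40.0%) and ribosomal protein genes (18.2%), and a −log10 q of at least 5 for retrovirus silencers (3.08%), zinc finger (3.99%) and ribosomal protein genes (2.87%); the cause was not tested. The gene body values have no interval and rest on fewer TKO regions than the main values. With 10 kb on either side there were 36 at histone and 190 at ribosomal protein genes. Leaving out regions with a background over 10 was added after seeing the data. No paired analysis was possible because replicates were pooled before peak calling, and for the same reason no replicate could be left out. The lowest pileup of a member was 8 fragments, and an effect of depth on membership was not tested.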
